A study of Homo sapiens with 12 samples.

Results

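ATF4, the transcription factor at the centre of the integrated stress response, and genes commonly listed among its targets were followed in breast cancer cells cultured in synthetic matrices. The 10 genes, ATF4, DDIT3, DDIT4, TRIB3, ASNS, CHAC1, SESN2, PSAT1, PHGDH and AARS, were taken by symbol from counts of 23368 distinct symbols. Each had enough reads to enter the main test of every comparison. RNA was sequenced after 3 days in PEG hydrogels from MDA-MB-231 cells, an ER− breast cancer line of the basal subtype, and from T47D cells, an ER+ line of the luminal A subtype. The gels were joined by a crosslinker that cells can degrade and carried either GFOGER, a peptide that mimics collagen, or IKVAV, which mimics laminin. MDA-MB-231 cells gave 3 libraries with GFOGER and 2 with IKVAV, T47D cells gave 3 with either peptide, and 3 gels of a composition were combined for each library. All groups shared the same serum-containing medium, and each carried a peptide, so a difference is always relative to the other peptide or the other cell line. A further IKVAV replicate of MDA-MB-231 cells, labelled as an outlier, came without counts and could not be analysed here. The labels do not say whether replicates came from separate cultures, so p-values measure only the spread between these libraries, which may be technical.

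The integrated stress response starts when kinases that sense amino acid shortage, unfolded protein, viral RNA or lack of haem phosphorylate the translation factor eIF2. General protein synthesis then falls while translation of the ATF4 mRNA is favoured, so ATF4 protein can change without a change in its mRNA. ATF4 in turn raises transcription of genes for amino acid synthesis, uptake and tRNA charging and of regulators of growth and cell death, often through a composite C/EBP-ATF response element in their promoters. The values here are of mRNA alone.

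Promoter sequences are shown for the members that hold the core letters of that element, since ATF4 is known to act on many of its targets through it. The core searched for was TGATGNAA on both strands, which reads TTNCATCA on the other strand, within windows from 250 bases before to 50 bases after each RefSeq transcription start (GRCh38.p14). All 10 members were found in the RefSeq table, AARS under its current symbol AARS1. ASNS, CHAC1 and AARS, 3 of the 10, had a match, whereas 4.46% of 27305 genes in the table did. A longer form, ATTGCATCA, matched 0 members and 0.293% of genes. Bases outside these windows were not searched, so the lack of a match does not show that a gene lacks the element. The stretches below run 5′ to 3′ on the strand of the gene, with the match in capitals. That of ASNS is chr7:97872433-97872512 on the minus strand, with the match at positions -68 to -61 from the start. The stretch of CHAC1 is chr15:40953226-40953305 on the plus strand, with the match at -209 to -202, and that of AARS is chr16:70289650-70289729 on the minus strand, with the match at -187 to -180. A match of letters is a description and not a measured binding site.
ASNS: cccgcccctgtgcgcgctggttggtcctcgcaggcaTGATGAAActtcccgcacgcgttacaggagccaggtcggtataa
CHAC1: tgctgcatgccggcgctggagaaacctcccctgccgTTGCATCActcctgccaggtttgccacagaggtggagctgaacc
AARS: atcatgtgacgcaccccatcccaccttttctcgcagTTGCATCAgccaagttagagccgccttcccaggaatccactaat

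Libraries held 14338238 to 18452145 reads on genes. In these libraries a count of 3 corresponds to 0.163 to 0.209 cpm (counts-per-million of the reads on genes), a limit that covers counting error only. Levels below are TMM-normalised cpm. The cell lines matched their labels. The summed level of 5 markers of MDA-MB-231 cells (VIM, CD44, AXL, ZEB1 and MSN) was 4658 to 7359 cpm in MDA-MB-231 libraries and 116 to 132 cpm in T47D libraries. The summed level of 5 markers of T47D cells (ESR1, PGR, GATA3, CDH1 and KRT19) was 5049 to 5850 cpm in T47D libraries and 184 to 229 cpm in MDA-MB-231 libraries, and 0 of these values was at 0 reads. Counts of replicates varied 2.51 to 18.6 times as much as sampling alone gives (chi-square per degree of freedom). Replicate 3 of MDA-MB-231 cells with GFOGER and replicate 3 of T47D cells with IKVAV stood apart from the others of their groups, at 16.4 to 18.6 and 16.9 to 17.9 times sampling noise. In addition, the deposited RPKM values imply a library total of 5191201 to 5774966 reads in IKVAV replicate 1 of MDA-MB-231 cells, in the 3 GFOGER replicates of T47D cells and in IKVAV replicate 3 of T47D cells, and of 19898878 to 22840524 in the other 6 libraries. Reads on genes were 295.9% to 308.6% of the lower totals, so these totals are not the depth of those libraries. The origin of the implied totals is not given. Fits that leave out 1 library at a time are given for many of the results below. The peptides cannot be compared in T47D cells without the 3 GFOGER replicates.

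In MDA-MB-231 cells, 5 of the 10 genes were higher with the collagen mimic than with the laminin mimic and 1 was lower, while ATF4 itself did not pass the test. Those that rose were PHGDH and PSAT1, enzymes of serine synthesis, the asparagine synthetase ASNS, the glutathione-degrading enzyme CHAC1 and the pseudokinase TRIB3. The mTORC1 inhibitor DDIT4 fell, and was lower in each GFOGER library than in either IKVAV library. Of all 14092 genes tested, 42.9% had an adjusted p below 0.05, 21.4% higher and 21.4% lower with GFOGER, so the share among these genes (6 of 10) should be read against a broad response. At a fold change over 2 as well, PHGDH and DDIT4 were called, 2 of 10 against 9.57% of all genes. The median log2 fold change of the 10 genes was 0.39 and that of all genes tested was 0.0039. Fold changes are GFOGER relative to IKVAV with the standard error (SE) of the fit, and adjusted p values come from the quasi-likelihood test of edgeR, adjusted by the Benjamini-Hochberg method over all genes tested. In bulk RNA, a higher share of cells that express a gene and more of its mRNA per cell cannot be told apart.

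**Figure D1:**
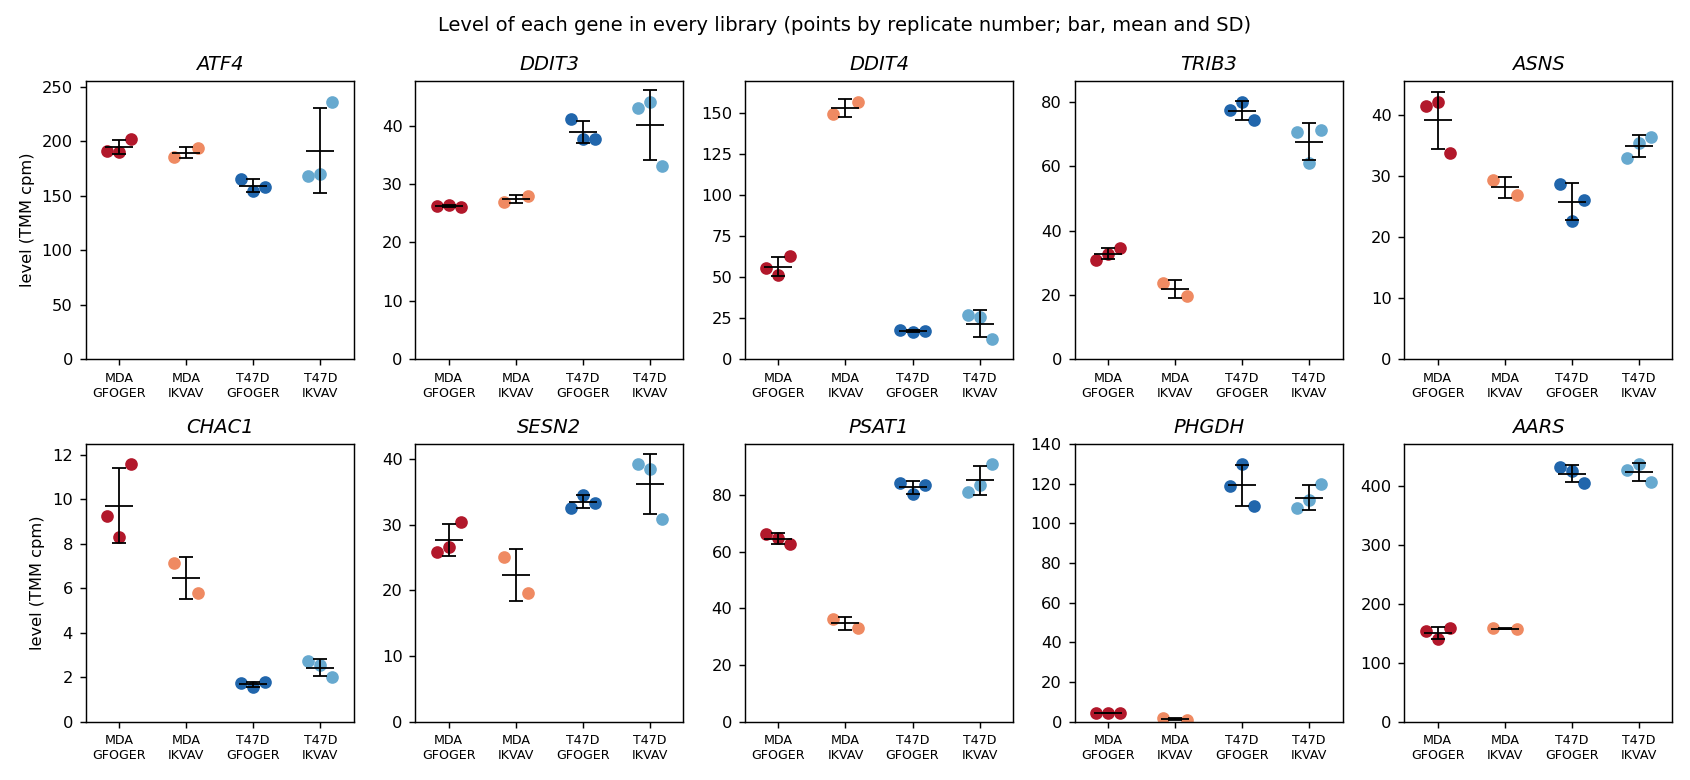
Level of each of the 10 genes (TMM-normalised cpm, linear axes from 0) in every library of the 4 groups, with points placed by replicate number and black bars for the mean and SD. In MDA-MB-231 cells the GFOGER and IKVAV libraries of PHGDH, PSAT1 and DDIT4 lie well apart, and in T47D cells IKVAV replicate 3 lies apart from replicates 1 and 2 for ATF4, DDIT3, DDIT4 and SESN2.

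ATF4 (hg19 chromosome 22, 39916569 to 39918691) was at 191, 190.3 and 202 cpm in the GFOGER libraries of MDA-MB-231 cells and at 186 and 193 cpm in the IKVAV libraries. These groups overlapped, and the log2 fold change was 0.03 ± 0.0874 (SE; edgeR adjusted p = 0.823). DDIT3, which encodes the transcription factor CHOP that acts with ATF4 under prolonged stress, was at 26.3, 26.3 and 26.1 cpm with GFOGER and at 27.0 and 28.0 cpm with IKVAV. The GFOGER libraries lay just below the IKVAV libraries, with a log2 fold change of -0.07 ± 0.122 (SE; edgeR adjusted p = 0.656). DDIT3 (chromosome 12, 57910371 to 57914300) shares 68 bases of its span with MARS, a gene with up to 4317 reads in a library, and the strand setting of the counting is not given in the sources used here.

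PHGDH (chromosome 1, 120254419 to 120286849) encodes the first enzyme of serine synthesis. It was at 4.34, 4.32 and 4.50 cpm with GFOGER and at 1.75 and 0.964 cpm with IKVAV. The GFOGER libraries had an SD of 0.0963 cpm and lay well above both IKVAV libraries, which held 27 and 16 reads of the gene against 70 to 79. The log2 fold change was 1.69 ± 0.307 (SE; edgeR adjusted p = 0.000345), a 3.23-fold difference, and leaving out each library gave values from 1.32 to 2.17. T47D cells express PHGDH far more, and the GFOGER and IKVAV means of MDA-MB-231 cells were 3.68% and 1.20% of the T47D means, while the 5 markers of T47D cells stood at 0.267% and 0.176% (ESR1), 0.188% and 0.187% (PGR), 0.241% and 0.461% (CDH1), 1.61% and 1.97% (GATA3) and 11.8% and 11% (KRT19). The part of RNA from T47D cells in the PHGDH values was not tested.

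PSAT1 (chromosome 9, 80912059 to 80945009) encodes the aminotransferase that acts after PHGDH in the same pathway. Its level was 66.3, 64.7 and 62.6 cpm with GFOGER and 36.3 and 33.1 cpm with IKVAV. The peptides were separated by far more than the spread between replicates, with a log2 fold change of 0.89 ± 0.112 (SE; edgeR adjusted p = 1.15e-05) that ran from 0.83 to 0.96 when each library was left out. Both of these steps of serine synthesis thus rose with GFOGER, although from very different levels.

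ASNS (chromosome 7, 97481429 to 97501854), whose promoter stretch is printed above, encodes the enzyme that makes asparagine from aspartate. It was at 41.5, 42.2 and 33.8 cpm with GFOGER and at 29.4 and 26.9 cpm with IKVAV. The groups did not overlap, but GFOGER replicate 3 was nearer to the IKVAV libraries than to the other GFOGER libraries. The log2 fold change was 0.47 ± 0.134 (SE; edgeR adjusted p = 0.00936). AARS (chromosome 16, 70286297 to 70323412), which encodes alanyl-tRNA synthetase and also has a match in its promoter, did not pass the test. It was at 154, 140.1 and 159 cpm with GFOGER and at 159 and 158 cpm with IKVAV, overlapping groups with a log2 fold change of -0.07 ± 0.0920 (SE; edgeR adjusted p = 0.541).

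CHAC1 (chromosome 15, 41245636 to 41248717), the other gene with a match, encodes a cyclotransferase that breaks down glutathione. It was at 9.26, 8.27 and 11.6 cpm with GFOGER and at 7.13 and 5.79 cpm with IKVAV, which corresponds to 96 to 203 reads per library. TRIB3 (chromosome 20, 361308 to 378203), a target of ATF4 and CHOP that feeds back on both, was at 31.0, 32.8 and 34.5 cpm with GFOGER and at 23.7 and 19.8 cpm with IKVAV. The groups did not overlap for either gene, and their log2 fold changes were near each other, 0.58 for CHAC1 (SE 0.196, adjusted p = 0.0245) and 0.58 for TRIB3 (SE 0.131, adjusted p = 0.00193, both from edgeR).

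DDIT4 and SESN2 both restrain the growth kinase complex mTORC1. DDIT4 (chromosome 10, 74033677 to 74035797) was at 55.5, 51.1 and 62.5 cpm with GFOGER and at 149 and 157 cpm with IKVAV. It was 2.73-fold higher with IKVAV, a log2 fold change of -1.45 ± 0.103 (SE; edgeR adjusted p = 1.67e-08) that stayed between -1.52 and -1.39 when each library was left out. SESN2 (chromosome 1, 28585963 to 28609002), which encodes a leucine sensor, was at 25.8, 26.6 and 30.4 cpm with GFOGER and at 25.1 and 19.5 cpm with IKVAV. The SESN2 libraries came close to overlapping, and the log2 fold change of 0.30 did not pass the test (SE 0.141, edgeR adjusted p = 0.098).

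DDIT4 is also known as a gene that hypoxia induces, and other such genes moved in the same direction. Of 11 hypoxia-inducible genes, 8 fell and 1 rose with GFOGER in MDA-MB-231 cells, where 21.4% of all genes fell and 21.4% rose, with a median log2 fold change of -0.62. The prolyl hydroxylase gene EGLN3 fell by 1.49 on the log2 scale and NDRG1 by 1.13, while the glucose transporter gene SLC2A1 rose by 0.27. SLC2A1 did not pass without either IKVAV library, and 7 to 9 genes of the list were lower when each library was left out. The part of hypoxia in the change of DDIT4 was not tested.

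In all, 8 of the 10 genes had no overlap between the libraries of the peptides in MDA-MB-231 cells, 6 of them higher with GFOGER, against 63.2% of all genes tested. Without IKVAV replicate 2, TRIB3, ASNS and CHAC1 did not pass the test, while DDIT4, PSAT1 and PHGDH did. Log2 fold changes in that fit were 0.46 for TRIB3, 0.41 for ASNS and 0.44 for CHAC1, against 0.58, 0.47 and 0.58 with all libraries. A fit without either IKVAV library has 1 library in that arm, which is assumed to vary like the GFOGER group. Such a fit has less power for every gene, and the share of all genes that passed in it is not given here. Fewer genes passing in it was therefore not read as a result about these genes, here or in the list counts below. The effect sizes also depended on which IKVAV library was left out. The median log2 fold change of the 10 genes was 0.51 without IKVAV replicate 1 and 0.27 without IKVAV replicate 2, against 0.39 with all libraries. CHAC1 also missed the threshold without GFOGER replicate 3, the library that stood apart (edgeR adjusted p = 0.0509).

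**Figure D2:**
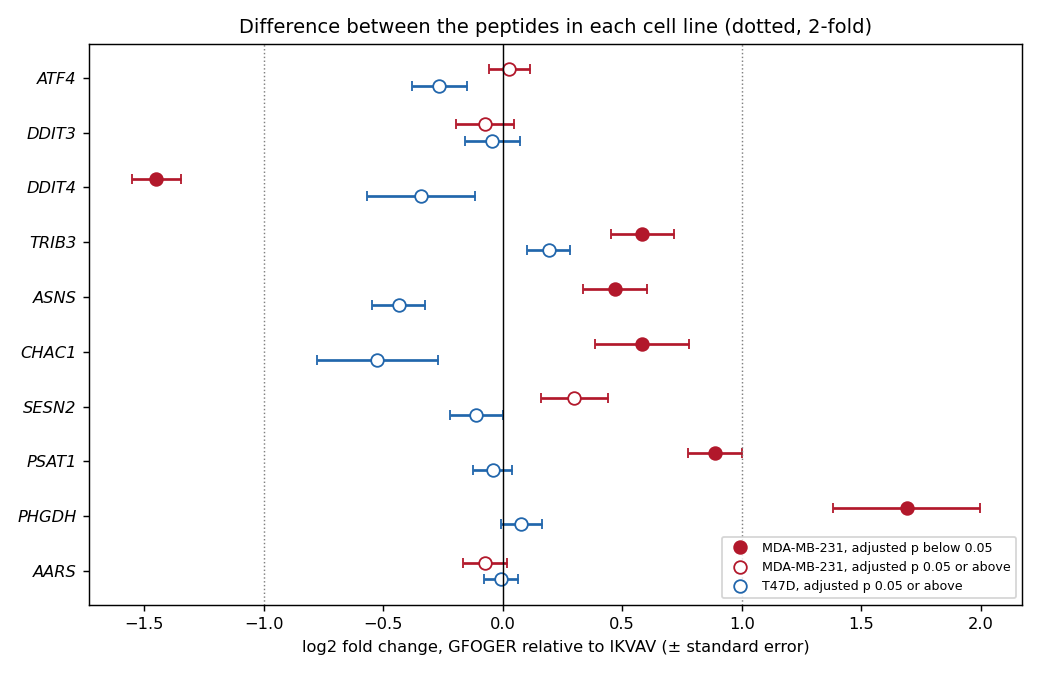
Log2 fold change of GFOGER relative to IKVAV for the 10 genes in the MDA-MB-231 line (red) and the T47D line (blue), with horizontal bars for the standard error, filled points for an adjusted p below 0.05 and dotted lines at a 2-fold difference. The values run from -1.45 (DDIT4) to 1.69 (PHGDH) in MDA-MB-231 cells and from -0.52 (CHAC1) to 0.19 (TRIB3) in T47D cells, where 0 of the 10 are filled.

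In T47D cells, 0 of the 10 genes passed the test in edgeR or in DESeq2, which gave no adjusted p for CHAC1. In edgeR, 3 of them (ATF4, TRIB3 and ASNS) were at an unadjusted p below 0.05, as were 11.2% of all genes. Of all 13642 genes tested, 6 (0.0440%) had an adjusted p below 0.05 and 3 (0.0220%) also had a fold change over 2. Log2 fold changes were within 0.52 of 0 and had a median of -0.08, against -0.0010 for all genes. In 4 of the 10 genes, ATF4, TRIB3, ASNS and CHAC1, the libraries of the peptides did not overlap, against 16.0% of all genes, with TRIB3 higher and the others lower with GFOGER.

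ASNS was at 28.7, 22.6 and 26.0 cpm with GFOGER and at 32.9, 35.3 and 36.4 cpm with IKVAV in T47D cells. Every IKVAV library lay above every GFOGER library, the opposite order to that in MDA-MB-231 cells. The log2 fold change was -0.44 ± 0.110 (SE; edgeR adjusted p = 0.199), and it ran from -0.52 to -0.35 over all alternatives. CHAC1 was low in these cells, at 1.74, 1.55 and 1.77 cpm with GFOGER and at 2.71, 2.56 and 2.02 cpm with IKVAV, from 26 to 42 reads per library. Its log2 fold change was -0.52 ± 0.252 (SE; edgeR adjusted p = 0.463).

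ATF4 was at 166, 154 and 158 cpm with GFOGER and at 168, 170.1 and 236 cpm with IKVAV, with a log2 fold change of -0.27 ± 0.114 (SE; edgeR adjusted p = 0.409). IKVAV replicate 3, the library that stood apart, held the highest ATF4 level of the series, and the other IKVAV libraries lay just above the GFOGER libraries. DDIT4 was at 17.4, 16.3 and 17.0 cpm with GFOGER and at 27.0, 25.5 and 11.9 cpm with IKVAV. The same library was thus the lowest of the 6 for DDIT4, while the other IKVAV libraries were the highest. DDIT3, at 37.7 to 41.0 cpm with GFOGER, showed this pattern as well, with 43.0 and 44.1 cpm in IKVAV replicates 1 and 2 and 33.1 cpm in replicate 3. SESN2 followed it, at 32.6 to 34.5 cpm with GFOGER, 39.2 and 38.5 cpm in IKVAV replicates 1 and 2 and 30.9 cpm in replicate 3. Replicate 3 was outside the range of the other IKVAV libraries for each of the 10 genes, as it was for 78.2% of all genes tested.

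What could be said of T47D cells therefore depended on this library. Without IKVAV replicate 3, 2 of the 10 genes passed, DDIT4 with a log2 fold change of -0.64 (adjusted p = 0.0012) and ASNS with -0.41 (adjusted p = 0.0258), and 7.62% of all genes did. Against IKVAV replicate 3 alone, which shares its RPKM total with the GFOGER libraries, ATF4 (-0.57, adjusted p = 5.46e-05) and ASNS (-0.50, adjusted p = 0.0219) passed, as did 3.77% of all genes, and DDIT4 turned to 0.50 (adjusted p = 0.0869). In that fit the lone IKVAV library is assumed to vary like the GFOGER group. All of these are edgeR values with Benjamini-Hochberg adjustment, and over all alternatives the adjusted p ran from 5.46e-05 to 0.840 for ATF4, from 0.0012 to 0.935 for DDIT4 and from 0.0219 to 0.650 for ASNS. ASNS was lower with GFOGER in each of these fits, while the RPKM total and the peptide cannot otherwise be told apart in T47D cells.

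**Figure D3:**
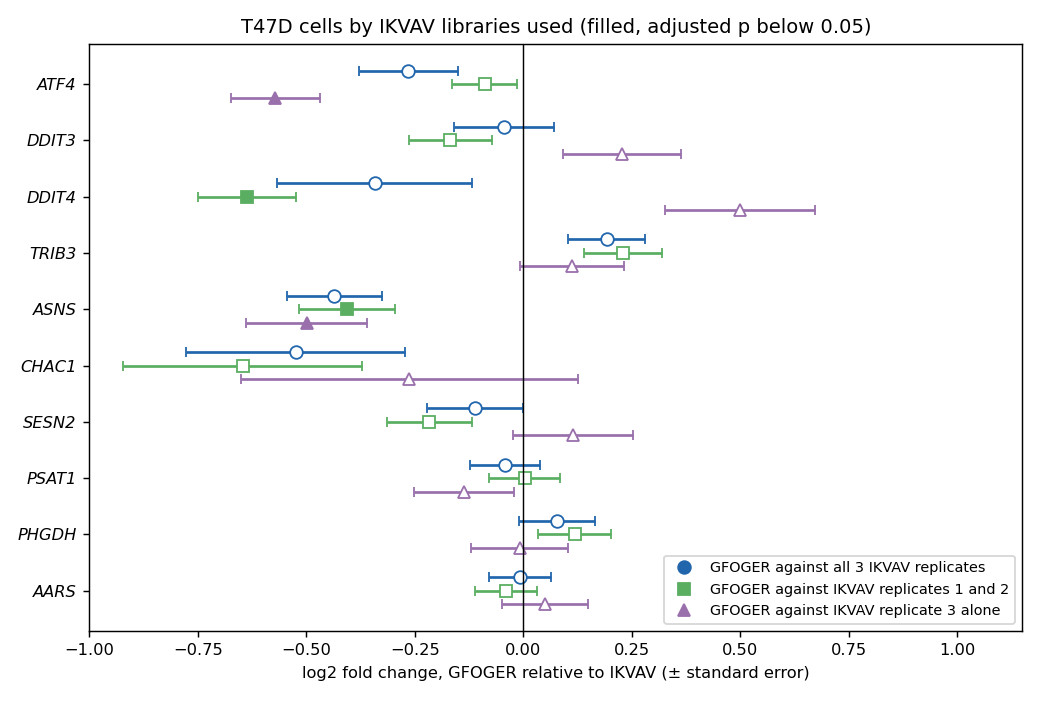
Log2 fold change of GFOGER relative to IKVAV in T47D cells for the 10 genes, with standard errors, when GFOGER is compared with all 3 IKVAV replicates (circles), with replicates 1 and 2 (squares) or with replicate 3 alone (triangles), filled where the adjusted p is below 0.05. DDIT4 lies at -0.64 against replicates 1 and 2 and at 0.50 against replicate 3, whereas ASNS lies between -0.50 and -0.41 in all of them.

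PSAT1, PHGDH and AARS, by contrast, were close to level between the peptides in T47D cells. PSAT1 was at 80.2 to 84.2 cpm with GFOGER and at 80.9 to 90.7 cpm with IKVAV, PHGDH at 109 to 130 cpm (109.0, 119 and 129.8 by library) and at 108 to 120 cpm (107.7, 112 and 119.8), and AARS at 405 to 434 cpm and at 407 to 438 cpm. The groups overlapped for each of these genes, and their log2 fold changes were -0.04 ± 0.0813 (SE), 0.08 ± 0.0869 (SE) and -0.0078 ± 0.0722 (SE). TRIB3, at 77.4, 80.1 and 74.4 cpm with GFOGER and at 70.7, 60.9 and 71.4 cpm with IKVAV, had the highest log2 fold change, 0.19 ± 0.0890 (SE; edgeR adjusted p = 0.443). The fold changes of the 10 genes did not pass the test, which does not show that the peptides act alike on them.

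The interaction of cell line and peptide tests whether MDA-MB-231 and T47D cells responded differently to the peptides. The difference passed for 5 of the 10 genes at any fold, against 21.0% of 15320 genes tested, and for DDIT4, CHAC1 and PHGDH at a fold over 2, against 6.42%. PHGDH, CHAC1, PSAT1 and ASNS had a higher response to GFOGER in MDA-MB-231 cells (10.9% of all genes did) and DDIT4 a lower response (10.2% did). For PHGDH the response was 3.08-fold that in T47D cells (1.62 ± 0.246 on the log2 scale, edgeR adjusted p = 0.000124). PSAT1 differed by 0.94 ± 0.130 (SE) and ASNS by 0.91 ± 0.174 (SE), with adjusted p values of 5.03e-05 and 0.00107 in the same edgeR test. The ASNS difference combined a rise in MDA-MB-231 cells with lower values with GFOGER in T47D cells, whereas for PSAT1 the response was 0.89 in MDA-MB-231 cells against -0.04 in T47D cells.

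DDIT4 differed by -1.10 (SE 0.270, adjusted p = 0.00675) and CHAC1 by 1.11 ± 0.318 (SE; edgeR adjusted p = 0.0171). Without IKVAV replicate 3 of T47D cells the interaction of DDIT4 was -0.81, below 2-fold but still past the test. The CHAC1 difference had an adjusted p of 0.0834 without IKVAV replicate 2 of MDA-MB-231 cells, the highest over its alternatives, which began at 0.00985. With the RPKM total class as a term CHAC1 did not pass either (0.0794), while ATF4 (0.58, edgeR adjusted p = 0.0232) and TRIB3 (0.60, edgeR adjusted p = 0.0307) did. With all libraries and no such term, log2 differences of ATF4, TRIB3 and SESN2 were 0.30, 0.40 and 0.42 and did not pass (edgeR adjusted p = 0.179, 0.0662 and 0.111), and those of DDIT3 and AARS were -0.02 and -0.06. TRIB3 passed without IKVAV replicate 2 of T47D cells (0.46, edgeR adjusted p = 0.0432), and SESN2 without IKVAV replicate 3 (0.52, edgeR adjusted p = 0.033), over ranges of 0.0307 to 0.367 and 0.033 to 0.490 among the alternatives, and of 0.0232 to 0.451 for ATF4. The interaction shares its libraries with the comparisons above and adds no samples to them.

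The cell lines themselves, with the peptides averaged, differed in 8 of the 10 genes at any fold and in 5 at a fold over 2, against 84.5% and 46.3% of all genes. Higher in MDA-MB-231 cells were DDIT4 and CHAC1, with 42.0% of all genes, and lower were PHGDH, AARS, TRIB3, PSAT1, DDIT3 and SESN2, with 42.5% of all genes. PHGDH, at 109 to 130 cpm in T47D cells with GFOGER against 4.32 to 4.50 cpm in MDA-MB-231 cells, was 47.6-fold lower in MDA-MB-231 cells over both peptides (-5.57 ± 0.111 on the log2 scale, edgeR adjusted p = 3.5e-20). AARS differed by -1.45 ± 0.0571 (SE), TRIB3 by -1.44 ± 0.0773 (SE), DDIT4 by 2.29 ± 0.136 (SE) and CHAC1 by 1.97 ± 0.155 (SE) on the log2 scale. PSAT1, DDIT3 and SESN2 differed by -0.82, -0.56 and -0.49. For ATF4 and ASNS the log2 differences were 0.14 ± 0.0773 (SE) and 0.15 ± 0.0866 (SE), with adjusted p values of 0.107 and 0.125 (edgeR). ATF4 passed without IKVAV replicate 3 of T47D cells, at a log2 difference of 0.23 (edgeR adjusted p = 0.000518, the lowest over its alternatives, which reached 0.516), and ASNS without GFOGER replicate 3 of MDA-MB-231 cells, at 0.21.

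Levels were compared between genes as TMM-normalised cpm per kilobase of gene length, and no test was made of them. In MDA-MB-231 cells ATF4 was the highest of the 10 genes in level per kilobase, with a median of 94.6 and a range of 91.9 to 99.8 over 5 libraries. It was followed by AARS (median 47.4), DDIT4 (35.7), PSAT1 (28.6), DDIT3 (22.3), ASNS (13.4), TRIB3 (12.6), SESN2 (7.32), CHAC1 (5.30) and PHGDH (2.15) in cpm per kilobase. Neighbours in this order overlapped in range except ATF4 and AARS, DDIT3 and ASNS, and CHAC1 and PHGDH. DDIT4 had the widest range, from 29.1 to 89.6 cpm per kilobase, and with IKVAV its mean of 87.3 came near to that of ATF4, 93.8.

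In T47D cells the order of levels per kilobase began with AARS, at a median of 128 cpm per kilobase (range 121 to 131 over 6 libraries), and ATF4, at 82.5 (range 76.3 to 117). PHGDH came next, with a median of 57.2 cpm per kilobase (range 53.5 to 64.4), whereas it was the lowest of the 10 in MDA-MB-231 cells. PSAT1 (median 38.1), DDIT3 (33.4), TRIB3 (29.7), ASNS (12.2), DDIT4 (9.83), SESN2 (9.62) and CHAC1 (1.21) followed. The ranges of PSAT1 and DDIT3, of DDIT3 and TRIB3, of ASNS and DDIT4 and of DDIT4 and SESN2 overlapped, and the other neighbours were separated.

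**Figure D4:**
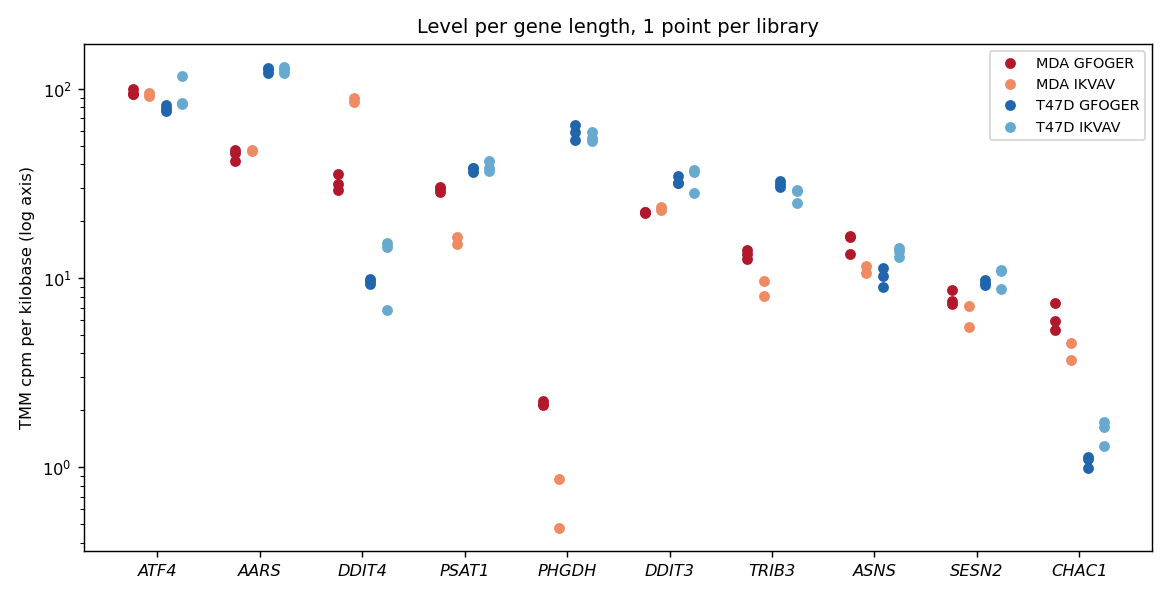
Level per gene length (TMM-normalised cpm per kilobase, log axis) of the 10 genes in each of the 11 libraries, ordered by the mean over the groups and coloured by cell line and peptide. ATF4 lies between 76.3 and 117 in every library, whereas PHGDH is between 53.5 and 64.4 in T47D cells and between 0.479 and 2.23 in MDA-MB-231 cells.

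Other genes of the pathway were followed in lists chosen by function. In MDA-MB-231 cells their counts are to be read against 21.4% of all genes higher and 21.4% lower with GFOGER. In MDA-MB-231 cells the aminoacyl-tRNA synthetases, which charge tRNAs with amino acids and include many known ATF4 targets, had 18 of 19 genes higher with GFOGER and 0 lower, with a median log2 fold change of 0.44. Each stayed below 2-fold, and the largest changes were those of FARSB (0.84) and VARS (0.80), subunit and enzyme for phenylalanine and valine. CARS, named here after its value was seen, was at -0.03 and did not pass. AARS is counted with the members and not in this list, and at -0.07 it did not pass either. Without IKVAV replicate 2, which leaves 1 library in that arm, fewer of the 19 passed and the list median was 0.41.

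Amino acid transporters had 5 of 9 genes higher with GFOGER and 2 lower, with a median of 0.37. SLC7A11, the cystine transporter, rose by 0.82 and SLC7A1, which carries arginine and lysine, by 0.75 on the log2 scale, while the glycine transporter gene SLC6A9 fell by 0.81 and SLC38A2, a transporter induced by amino acid shortage, fell by 0.32. SLC38A2 was not past the test without IKVAV replicate 2. Of 12 genes of amino acid synthesis and one-carbon metabolism, 4 rose and 2 fell, with a median of 0.18. MTHFD1L (0.88) and MTHFD2 (0.82), enzymes of the mitochondrial folate pathway that uses serine, rose, and ASS1 and CTH, of arginine and cysteine synthesis, fell by 0.87 and 0.51 on the log2 scale.

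Regulators upstream of ATF4, namely the eIF2 kinases, eIF2α, the eIF2B subunits, GCN1L1, IMPACT and PPP1R15B, had 9 of 13 genes higher and 0 lower, with a median of 0.33. GCN1L1 (0.33) and PPP1R15B (0.40) were among those higher, and IMPACT (-0.09) did not pass. The list was not drawn up by the direction in which a gene acts on ATF4, so the count gives no direction of upstream signalling. EIF2S1, which encodes eIF2α, rose by 0.72 and EIF2AK4, the amino acid-sensing kinase GCN2, by 0.48 on the log2 scale. The list median was 0.29 without IKVAV replicate 1 and 0.37 without IKVAV replicate 2. Fewer genes passed in these fits, each of which leaves 1 IKVAV library. When a GFOGER library was left out, 6 to 10 genes were higher.

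Stress effectors linked to ATF4 moved in both directions, with 3 of 17 higher, 6 lower and a median of 0.07. The cytokine gene GDF15 fell by 1.71 on the log2 scale, from 104 and 101 cpm with IKVAV to 34.7, 29.5 and 30.6 cpm with GFOGER, and the proapoptotic gene BBC3 fell by 1.03. CEBPB, a partner of ATF4 at the composite element, fell by 0.68. EIF4EBP1, which encodes an inhibitor of translation, rose by 0.98, and PMAIP1, another proapoptotic gene, by 0.67 on the log2 scale. Without IKVAV replicate 1, 3 genes of this list were lower, and without GFOGER replicate 3, 6 were higher. The ATF6 and XBP1 branches of the unfolded protein response had 1 of 17 genes higher (ATF6, 0.26) and 6 lower, among them the chaperone gene DNAJB9 (-0.50) and the sensor gene ERN1 (-0.50), with a median of -0.03. When either IKVAV library was left out, 1 gene of that list was lower, and ATF6 passed in 1 of the 5 fits with a library removed, that without GFOGER replicate 3. DNAJB9 did not pass without IKVAV replicate 1, nor ERN1 without GFOGER replicate 2 or IKVAV replicate 2. All of these counts are of genes with an adjusted p below 0.05 in edgeR, where 21.4% of all genes were higher and 21.4% lower.

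In T47D cells, 0 genes of any of these lists passed the test in edgeR or DESeq2 with all libraries, and list medians were between -0.11 and 0.05. Among the named genes of these lists, DESeq2 gave no adjusted p for CTH. Unadjusted p values were below 0.05 for 1 of the 19 aminoacyl-tRNA synthetases, 2 of the 9 transporters, 4 of the 17 stress effectors, 0 of the 13 upstream regulators, 1 of 13 genes of amino acid synthesis and one-carbon metabolism, 3 of 17 of the unfolded protein response and 2 of 10 hypoxia-inducible genes, against 11.2% of all genes. Without IKVAV replicate 3, 1 transporter and 1 stress effector were lower and 1 gene of amino acid synthesis and one-carbon metabolism was higher with GFOGER. The interaction passed for 12 of the 19 aminoacyl-tRNA synthetases, each with a higher response to GFOGER in MDA-MB-231 cells, and for 4 of the 9 transporters and 4 of the 13 upstream regulators, likewise higher, where 10.9% of all genes were higher and 10.2% lower. It was higher for 4 and lower for 1 of 13 genes of amino acid synthesis and one-carbon metabolism, lower for 2 of 17 of the unfolded protein response and lower for 6 of 11 hypoxia-inducible genes. Among stress effectors it was higher for 3 and lower for 4 of 17, with GDF15 at -2.03 ± 0.163 (SE) on the log2 scale.

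**Figure D5:**
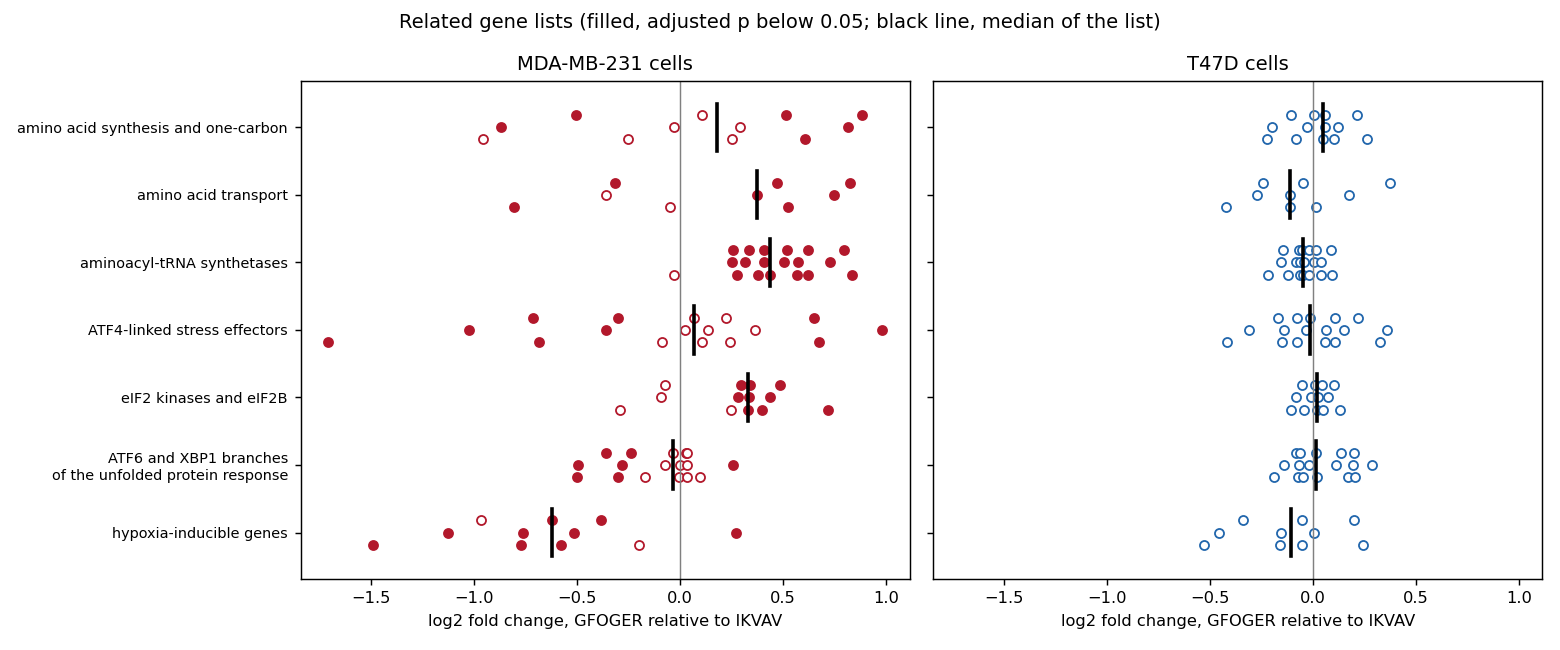
Log2 fold change of GFOGER relative to IKVAV for the genes of 7 related lists in MDA-MB-231 cells (left) and T47D cells (right), with 1 point per gene, filled where the adjusted p is below 0.05, and a black line at the median of each list. The aminoacyl-tRNA synthetases lie mostly to the right of 0 in MDA-MB-231 cells (median 0.44) and hypoxia-inducible genes mostly to the left (median -0.62), while in T47D cells 0 points are filled.

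Among 9091 genes other than the members whose average log2 cpm was 4 or more, those whose log2 cpm most resembled that of ATF4 over the 11 libraries were PRR3, HECA and YTHDF2, with Pearson r of 0.91, 0.90 and 0.86. T47D IKVAV replicate 3 was the highest T47D library for each of them and for ATF4, with PRR3 at 26.7 cpm against 18.5 and 15.8 cpm in the other IKVAV libraries. Over the 10 libraries without it, r was 0.900, 0.85 and 0.81, and these genes ranked 1584, 2418 and 2697 of the 9091, so their place rested on that library. Within T47D cells, as deviations from group means, r was 0.92, 0.86 and 0.88 over 6 libraries and 0.14, -0.77 and -0.61 over 5 without IKVAV replicate 3. Over 5 libraries of MDA-MB-231 cells it was 0.96, 0.58 and -0.90. For the members themselves, r with ATF4 ran from -0.60 for DDIT3 to 0.57 for ASNS over the 11 libraries and from -0.92 for AARS to 0.97 for CHAC1 without that library, and these libraries share 2 cell lines and 2 peptides.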

How the data were processed

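According to the submitters' processing notes and the study's methods, single-end reads were trimmed with Trim Galore 0.4.4, aligned to hg19 with TopHat2 2.1.0 and counted on genes with HTSeq 0.6.1p1. The gene annotation and strand setting are not given in the sources used here. The deposited table holds whole-number read counts without normalization and RPKM values that the authors scaled by gene length and a library total, beside the gene positions and lengths that the authors deposited. The counts were used for each result, the RPKM values for the library totals they imply. For 1288 entries that repeat a symbol, the entry with the most counts was kept.

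Libraries were normalised by TMM, filtered with filterByExpr and tested with edgeR 4.0.16 (R 4.3.3) by quasi-likelihood with Benjamini-Hochberg adjustment, each cell line on its own for the peptides and the 4 groups together for the interaction and the cell lines. The threshold on adjusted p was 0.05, and counts are given at any fold and over 2-fold. The test was checked on simulated counts with changes over 2-fold, scored at the 2-fold limit. That check covers neither smaller changes nor libraries that stand apart. Alternatives were DESeq2 1.42.0, other normalizations and filters, the replicate number as a block, the RPKM totals and leaving out each library, and the likeness to ATF4 without 1 library was added after seeing the data. The members, lists and tests were chosen with earlier results of these data known. Genes named beside the members are each list's called genes and the 2 largest changes in each direction with an adjusted p below 0.05. The markers of the cell lines and the 3 genes most like ATF4 are named as well. CARS, GCN1L1, PPP1R15B, IMPACT and, for its overlap with DDIT3, MARS were named outside this rule.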

Additional observations from a re-analysis of the deposited data

Results flagged for a closer look

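Listed here are only members and genes named by the rule above. In each the response to the peptides differed between the cell lines by the interaction test (edgeR, adjusted p below 0.05). Values are the log2 difference of the responses, MDA-MB-231 minus T47D. Among the members these were PHGDH at 1.62, CHAC1 at 1.11, DDIT4 at -1.10, PSAT1 at 0.94 and ASNS at 0.91. Among genes of amino acid supply, SLC7A11 was at 1.25, MTHFD1L at 1.09, ASS1 at -1.07, MTHFD2 at 0.91, FARSB at 0.90, SLC7A1 at 0.80 and VARS at 0.80. Of the stress effectors and upstream regulators, GDF15 was at -2.03, CEBPB at -1.04, BBC3 at -0.98, PMAIP1 at 0.84, EIF4EBP1 at 0.77, EIF2S1 at 0.73 and EIF2AK4 at 0.48. The hypoxia-inducible genes EGLN3 and NDRG1 were at -1.03 and -0.96. BBC3 did not pass in 6 of the 11 fits that left out 1 library, those without GFOGER replicate 1, IKVAV replicate 1 or IKVAV replicate 2 of MDA-MB-231 cells and without GFOGER replicate 2, GFOGER replicate 3 or IKVAV replicate 2 of T47D cells, and CHAC1 did not without IKVAV replicate 2 of MDA-MB-231 cells. Neither passed with the RPKM total class as a term.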

How the results depend on the processing

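No counts were given for the replicate that the labels describe as an outlier, so the alternative planned with it could not be run. Members with an adjusted p below 0.05 in MDA-MB-231 cells numbered 6 in the fits that changed the test, normalization, filter, block or RPKM class, and 3 to 6 when each library was left out. In T47D cells they numbered 0, with 1 under the RPKM total class as a term, 2 within 1 class and 0 to 2 when each library was left out. The counts for the interaction (4 to 6 at any fold, 2 to 4 over 2-fold) and the cell lines (8 to 9 and 5) stayed within 1.5 times. Some log2 values changed sign, and the cause was not tested. With the RPKM class as a term and within 1 class, T47D values became 0.50 and 0.50 for DDIT4, 0.23 and 0.23 for DDIT3, 0.12 and 0.11 for SESN2, 0.0548 and 0.0495 for AARS and -0.00302 and -0.00847 for PHGDH. ATF4 in MDA-MB-231 cells became -0.00381 with the class as a term and -0.00300 with upper-quartile normalization, and the interaction of SLC38A2 became 0.11 with the class. Leaving out 1 library gave T47D values from -0.168 to 0.0304 for DDIT3, -0.0754 to 0.00367 for PSAT1 and -0.0399 to 0.0179 for AARS, and interactions from -0.106 to 0.0983 for DDIT3 and -0.224 to 0.0276 for SLC38A2. With the replicate number as a block, the interaction of DDIT3 was 0.0237 and the difference of ATF4 between cell lines passed at 0.172 (edgeR adjusted p = 0.0474, over a range of 0.000518 to 0.516 among alternatives), and the counts of members were 6, 0, 5 and 9 at any fold for the 4 comparisons. The block changed no other call of a member or named gene. In the lists the fit with the block moved the counts in MDA-MB-231 cells for stress effectors from 3 to 6 higher, for the ATF6 and XBP1 branches from 1 to 2 higher and 6 to 8 lower, for hypoxia from 8 to 9 lower, for upstream regulators from 9 to 10 higher and for synthesis from 4 to 5 higher. Among the MDA-MB-231 libraries only GFOGER has a replicate 3, so the block takes up that library. Leaving out GFOGER replicate 3 gave the same counts in these lists, so these shifts cannot be told apart from the loss of that library. With upper-quartile normalization or library size alone, 7 upstream regulators were higher in MDA-MB-231 cells. The aminoacyl-tRNA synthetases had 16 and 17 higher, and the ATF6 and XBP1 branches 0 higher and 6 lower. The other lists kept their counts. The RPKM class as a term takes up IKVAV replicate 1 in MDA-MB-231 cells. It gave medians of 0.29 for upstream regulators and -0.04 for the ATF6 and XBP1 branches. Replicate numbers gave no sign of pairing, with correlations of same-numbered libraries from -0.0602 to 0.0170. Depth limits CHAC1 in T47D cells and PHGDH in MDA-MB-231 cells with IKVAV, at 16 to 42 reads a library.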
